A study of Mus musculus with 19 samples.

Results

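Hox genes encode homeodomain transcription factors, and the 39 described here are the genes of the mouse table whose symbol is Hox, a cluster letter from a to d and a paralog number. They were taken from a table of 50559 genes by that symbol pattern alone, without regard to their values. They lie in 4 clusters, with 11 genes in HoxA on chromosome 6, 10 in HoxB on chromosome 11, 9 in HoxC on chromosome 15 and 9 in HoxD on chromosome 2. Of these, 8 belong to paralog groups 1 to 3, 15 to groups 4 to 8, 4 to group 9 and 12 to groups 10 to 13.

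Along each cluster the paralog number follows the order in which the genes are switched on from head to tail in the embryo. Low numbers are used in the hindbrain and neck, middle numbers at brachial and thoracic levels, and high numbers at lumbar and sacral levels. In the developing spinal cord HOX proteins, together with partner homeodomain proteins of the PBX, MEIS and PKNOX families, set which motor columns and pools form at each level. Transcripts of many of these genes persist in adult spinal neurons.

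Ribosome-bound mRNA came from the spinal cords of 10-wk-old male C57BL/6J mice of genotype ChAT-Cre;RiboTag fx/+, in which cells expressing Cre from the choline acetyltransferase gene carry a hemagglutinin (HA) tag on a ribosomal protein. The HA tag was precipitated from the homogenate of 1 spinal cord per library. Mice lived in 12 h of light and 12 h of darkness and were sampled every 4 h from ZT0 to ZT20 (Zeitgeber time, with lights on at ZT0), with 3 biological replicates per time. This gave 18 immunoprecipitates (IPs) and a single pooled input library. The input was RNA of the homogenate after centrifugation, before precipitation, and the paper describes it as whole spinal cord RNA. All animals shared the Cre and RiboTag alleles, there was no line without Cre, and cholinergic interneurons and preganglionic neurons of the cord also express Cre, so the IPs are not of motor neurons alone. The labels name no segment of the cord, so values are read as averages along it.

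The IPs held 6302140 to 22406850 counts each and the input 15239783. Between 4538 and 19978 counts of an IP, and 16809 of the input, fell on Hox genes. Levels are given as CPM, the count relative to a library total scaled by the trimmed mean of M-values (TMM). Of 7 cholinergic markers, 6 were at least 2-fold above the input with all 18 IPs above it. The exception was Chat, the gene that drives Cre, whose IPs ran from 8.36 to 85.6 CPM against 13.0 in the input, a log2 ratio of 1.60. All 7 oligodendrocyte, 6 of 6 astrocyte and 6 of 6 microglial markers were at least 2-fold below it. They were not at 0, since the oligodendrocyte markers summed to between 1515 and 2887 CPM in the IPs against 21820 in the input. All 4 excitatory and 3 of 4 inhibitory neuron markers were below the input, and Gad1 was near it, at 128 against 141 CPM. Of 5 dorsal root ganglion markers 4 were below, whereas Calca was above, at 624 against 55.9 CPM (log2 ratio 3.48). Among forebrain and midbrain patterning genes, which mark tissue rostral to the Hox territory, Otx1, Otx2, Emx2 and Six3 had no count in any of the 19 libraries. Others of the list were counted, with 4 input counts for Emx1, 3 for Lhx2 (IPs up to 0.933 CPM), 45 for En1 (IP mean 1.23 CPM), which spinal interneurons also use, and 73 for En2 (0.440 CPM). In bulk samples such as these, fewer cells of a type and less RNA per cell cannot be told apart.

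Promoter windows of 3 genes are shown because the comparisons below turn on them most. Hoxa7 was above the input in every IP, its neighbour Hoxa6 in the same cluster was the Hox gene furthest below it, and Hoxb8 was the most abundant Hox gene of the input. Each window holds 250 bases before and 50 after the RefSeq start, on build GRCm38.p6 (mm10) and in the direction of the gene. For Hoxa7 and Hoxa6 this start is the end of the RefSeq gene, whereas the Hoxb8 window is set on a start 2504 bases inside it. Capitals mark matches on either strand to any of 6 motifs. These are the TATA box, with the letters TATAAA; the CCAAT box, searched by the letters of its name; the GC box, with the letters GGGCGG; the E-box, with the letters CACGTG; the core of HOX binding sites, with the letters TAATTA; and the joint site of HOX and PBX proteins, with the letters TGATTNAT. No motif of the set contains another, and adjoining GC boxes can share bases.
Hoxa7, chr6:52218524-52218823, minus strand: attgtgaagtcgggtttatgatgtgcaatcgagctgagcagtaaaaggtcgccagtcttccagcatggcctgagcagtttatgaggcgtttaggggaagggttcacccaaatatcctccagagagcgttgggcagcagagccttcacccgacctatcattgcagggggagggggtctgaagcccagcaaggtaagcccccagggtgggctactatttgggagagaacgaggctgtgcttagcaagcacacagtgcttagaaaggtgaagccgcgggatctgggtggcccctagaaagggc
Hoxa6, chr6:52208623-52208922, minus strand: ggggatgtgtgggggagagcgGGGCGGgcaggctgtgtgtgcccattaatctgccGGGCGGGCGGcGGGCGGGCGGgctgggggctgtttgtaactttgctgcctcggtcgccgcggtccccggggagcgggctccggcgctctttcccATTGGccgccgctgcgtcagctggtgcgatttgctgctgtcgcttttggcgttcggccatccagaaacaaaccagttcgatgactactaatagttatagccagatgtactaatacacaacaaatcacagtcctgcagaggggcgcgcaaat
Hoxb8, chr11:96281655-96281954, plus strand: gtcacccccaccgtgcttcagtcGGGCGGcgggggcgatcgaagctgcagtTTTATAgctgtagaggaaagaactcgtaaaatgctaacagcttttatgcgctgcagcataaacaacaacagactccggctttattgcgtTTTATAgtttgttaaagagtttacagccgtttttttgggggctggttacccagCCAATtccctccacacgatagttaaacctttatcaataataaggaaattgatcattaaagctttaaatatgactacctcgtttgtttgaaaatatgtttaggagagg
The Hoxa7 window held none of the 6 motifs. The Hoxa6 window held 1 CCAAT box and 5 GC boxes, and the Hoxb8 window 2 TATA boxes, 1 CCAAT box and 1 GC box. RefSeq windows, 24 in all, matched 22 of the 39 Hox genes. The E-box, the sequence bound by the CLOCK and BMAL1 clock proteins, was in the windows of 5 of these 22 genes, against 7.15% of all 32851 windows. The 5 were Hoxd1, Hoxd4, Hoxd10, Hoxd11 and Hoxd13, all of the HoxD cluster. Hoxd4, Hoxd10 and Hoxd11 passed no test of time below, and the other two were too low to be tested. Every HoxD gene had a window, whereas in HoxB only Hoxb1, Hoxb4 and Hoxb8 did, and in HoxC only Hoxc4. Most HoxB and HoxC genes, Hoxb7 and Hoxc8 among them, were therefore not searched. TATA boxes were found for 4 of the 22 genes (13.6% of all windows), CCAAT boxes for 15 (37.4%), GC boxes for 10 (35.7%), the joint HOX and PBX site for 2 (3.22%) and the HOX core for 1 (5.29%). These are matches of letters within a short window and not measured binding.

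Transcripts of 37 Hox genes were counted in the IPs, and their levels were highest in the middle paralog groups. Of these, 18 genes were at 10 CPM or more, 9 lay between 1 and 10 CPM and 10 were under 1 CPM. The 18 genes at 10 CPM or more all belonged to groups 4 to 10, in which Hoxa4, Hoxd4, Hoxa6 and Hoxa10 were lower. Hoxc8 and Hoxb8, which pattern brachial and thoracic levels, were the most abundant, at 124 ± 28.5 and 123.5 ± 21.4 CPM (SD, n = 18). Levels can be ranked between genes only per length, and per kb of the longest coding transcript Hoxc8 led the IPs with 66.5 CPM per kb. It was followed by Hoxb8 at 46.9, Hoxc10 at 26.6, Hoxa7 at 26.4, Hoxb6 at 25.9 and Hoxb7 at 23.4 CPM per kb, of which the last 4 differed by less than the SD of Hoxa7 across libraries (6.67 CPM per kb). The order depended on the length used. Per kb of all annotated exons Hoxb8 at 46.9 was above Hoxc8 at 43.9, Hoxb7 at 19.6 above Hoxa7 at 18.4, and Hoxa5 at 18.6 above Hoxb5 at 14.3 CPM per kb.

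**Figure D1:**
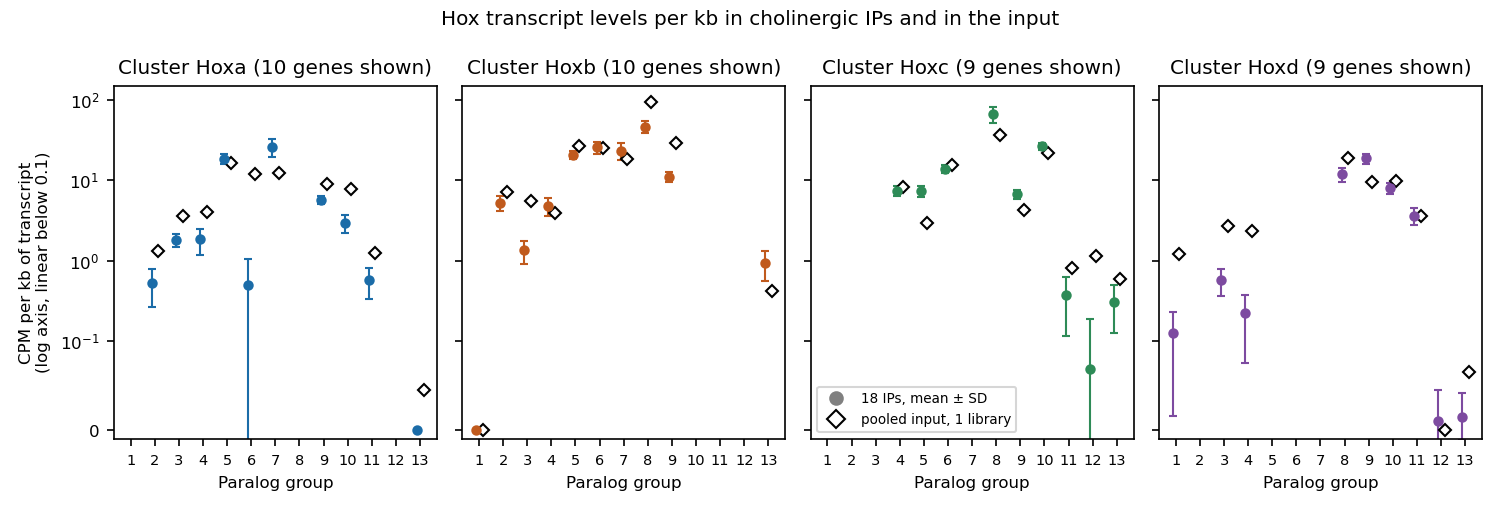
Level of 38 Hox genes per kb of transcript (CPM per kb, log axis that is linear below 0.1) against its paralog group, in 1 panel for each cluster. Filled circles are the mean of the 18 IPs with SD bars and open diamonds the single input library. The highest circles of the 4 panels are Hoxa7, Hoxb8, Hoxc8 and Hoxd9, and both symbols fall to groups 11 to 13. Hoxc10 is a second high point of HoxC, and Hoxa6 lies far below its neighbours in the IPs alone.

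Groups 1 to 3, which pattern the hindbrain and neck, were low throughout. Hoxb2 was the highest of them at 8.53 ± 1.78 CPM, with IPs between 5.50 and 11.1, and Hoxa3 reached 4.73 ± 0.925 CPM. Hoxb1 had no count in any library. In groups 4 to 7 the genes with the most counts, not corrected for length, were Hoxc4 at 15.8 ± 2.32 CPM, Hoxb5 at 39.7 ± 4.22, Hoxb6 at 50.9 ± 8.63 and Hoxa7 at 53.1 ± 13.4 CPM. Hoxd9, which with its group 9 paralogs marks thoracic to upper lumbar cord, was at 40.3 ± 5.73 CPM.

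Hoxc10 led the lumbar groups, with a lowest IP of 41.2, a median of 52.4 and a highest of 59.7 CPM. Its coefficient of variation over the 18 IPs, 10.7%, was among the smallest of the Hox genes. The next in order were Hoxd10 at 14.8 ± 2.33 and Hoxa10 at 7.65 ± 1.91 CPM. From group 11 on, levels fell to 4.04 ± 0.951 CPM for Hoxd11 and 2.09 ± 0.862 CPM for Hoxb13, a gene used at the tail end of the cord. Hoxc12 had a count in 7 of the 18 IPs, Hoxd13 in 5, Hoxd12 in 2 and Hoxa13 in none. The genes above 0 but under 1 CPM included Hoxd1, Hoxa2, Hoxd4, Hoxa6, Hoxc11, Hoxc12, Hoxd12, Hoxc13 and Hoxd13.

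Some of these values rest on shared sequence. In GENCODE M21, exons of Hoxd3 and Hoxd4 overlap those of each other and of Gm28230 on the same strand, over 62.3% and 52.3% of their length. The annotation used for counting is uncertain and all Hox values were whole, so how reads of shared exons were assigned is uncertain. Antisense transcripts overlap 52.9% of the exons of Hoxb3, 35.0% of Hoxa11, 27.3% of Hoxb2, 25.4% of Hoxa3 and 20.4% of Hoxa7. The strand setting of the counting is not given in the sources used here, so reads of the partners may not have been separated. For Hoxa7 the partner Hoxaas3 was itself at 0.0801 ± 0.194 CPM.

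Comparison of the IPs with the input asked which Hox transcripts were more or less abundant on the ribosomes of cholinergic neurons than in the centrifuged homogenate. With a single input library there was no test. A gene was described as above or below when the mean CPM differed at least 2-fold and all 18 IPs lay on that side, provided that the input held 10 counts or more, or the IPs 10 on average. Of the Hox genes 35 could be compared. Of them 2 were above the input, against 14.3% of all 16305 genes compared, and 13 were below it, against 26.3%. As shares of the 35 genes these are 5.71% and 37.1%. All 18 IPs lay above the input for 5 Hox genes (27.2% of all genes) and below it for 18 (37.2% of all genes). The median log2 ratio was -0.66 over the Hox genes and -0.19 over all genes compared.

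Among genes with at least 30 input counts, the highest ratios were in groups 5 to 9. Hoxc5 ranged from 15.2 to 27.1 CPM in the IPs around a median of 21.5, whereas the input was at 8.63 CPM (95% Poisson interval for counting error 7.34 to 10.1). Its log2 ratio was 1.30. Hoxa7 ranged from 37.4 to 78.7 CPM with a median of 48.3, against 25.0 in the input (22.7 to 27.4), a log2 ratio of 1.09. No IP of either gene reached down to the input.

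Hoxd9, Hoxc8 and Hoxc9 also had all 18 IPs above the input without reaching 2-fold. Hoxd9 had IPs from 31.4 to 48.6 CPM against an input of 20.7, a log2 ratio of 0.96. Hoxc8 had IPs from 89.8 to 206 CPM against 68.2, a log2 ratio of 0.87. Hoxc9 was at 16.0 ± 2.06 against 10.1 CPM, a log2 ratio of 0.67. The most caudal gene with a ratio above 0 was Hoxb13, with a log2 ratio of 1.18 but only 17 input counts, and 2 of its 18 IPs lay below the input.

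The gene furthest below the input was Hoxa6. It had 196 counts in the input, 10.6 CPM, and at most 21 counts in any IP, with 0 in 6 of them. The IPs ran from 0 to 1.43 CPM around a median of 0.366, and the mean was 24.2-fold below the input, a log2 ratio of -4.59. Its neighbours on the chromosome did not share this. Hoxa5, which lies on chromosome 6 from 52201754 to 52204587, was at 35.0 ± 4.70 CPM against 31.3 in the input, and Hoxa7, from 52215623 to 52218573, was above the input. Hoxa6 lies between them, from 52204858 to 52208672, on the same minus strand, and its exons overlap no other annotated gene's exons.

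Beside Hoxa6, the lowest ratios among genes with at least 30 input counts were in groups 1 to 4 of the HoxD and HoxB clusters. Hoxd4 was at 0.571 ± 0.378 CPM against 6.08 in the input, which is 10.7-fold lower, and Hoxd1 at 0.232 ± 0.201 against 2.28, which is 9.84-fold lower. Hoxd3 was at 1.71 ± 0.628 against 8.04 and Hoxb3 at 4.30 ± 1.39 against 17.7 CPM. For each of these 4 genes all 18 IPs were below the input. Hoxc12, with 22 input counts, had a log2 ratio of -4.08.

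By position, none of the 7 genes compared from groups 1 to 3 had a mean above the input. This held for 7 of 15 genes of groups 4 to 8, 2 of 4 of group 9 and 3 of 9 of groups 10 to 13. The abundant genes below the input were Hoxb8, at 123.5 ± 21.4 against 249 CPM, and Hoxb9, at 28.5 ± 3.82 against 76.2 CPM. Hoxa10 was at 7.65 against 20.1 CPM, and the remaining genes called below were Hoxa2, Hoxa4, Hoxa11 and Hoxc11. The direction depended on the scaling for 5 genes close to the input. The log2 ratios of Hoxa5, Hoxb6, Hoxc10, Hoxb4 and Hoxd11 were 0.16, 0.02, 0.29, 0.29 and 0.007 with TMM, and -0.13, -0.27, -0.001, -0.001 and -0.28 with library totals. Library totals moved the median of all genes from -0.19 to -0.47, and left 4 of 15 genes of groups 4 to 8 and 1 of 9 of groups 10 to 13 with a mean above the input. With library totals or upper-quartile scaling 1 Hox gene was above the input in place of 2.

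**Figure D2:**
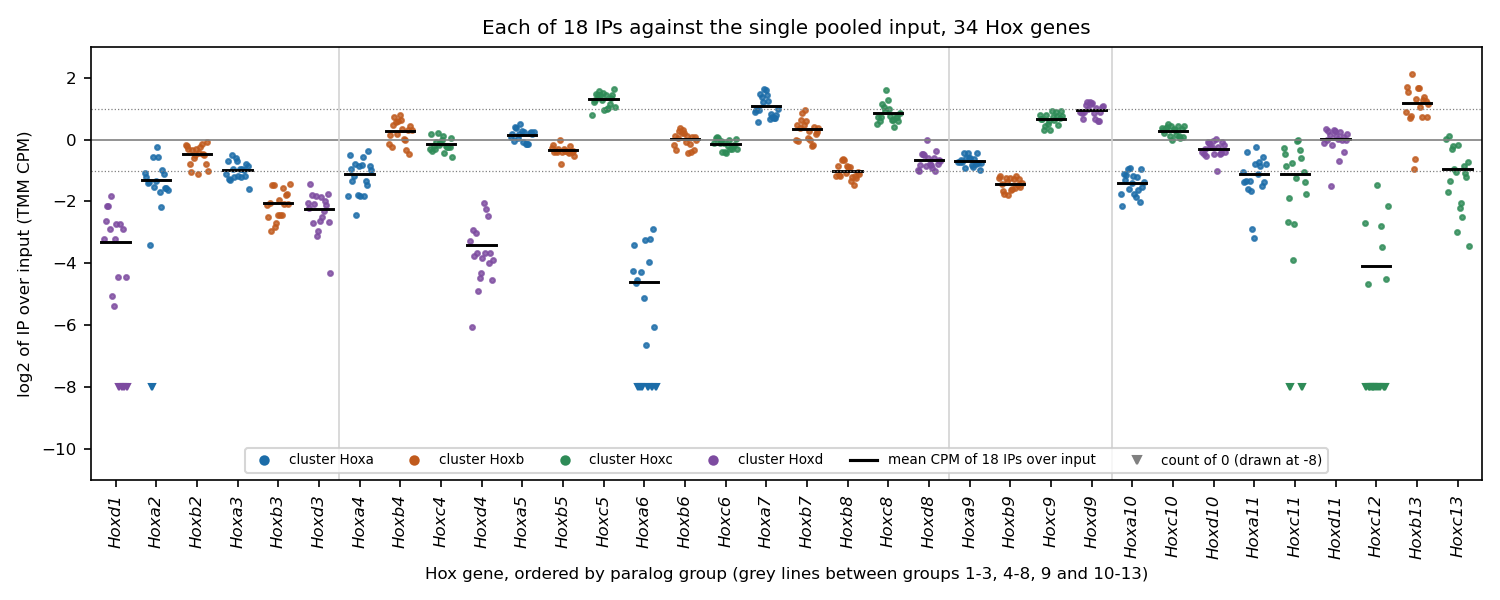
Log2 ratio of each of the 18 IPs to the single input library (TMM CPM) for 34 of the Hox genes compared, ordered by paralog group, with black bars at the ratio of the mean IP level. Triangles in a row near the bottom stand for a count of 0. Hoxc5 and Hoxa7 have all points above 0 and a bar beyond the dotted 2-fold line, and Hoxa6, Hoxd4 and Hoxc12 lie furthest below.

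Ratios between Hox genes within a library need no scaling. For each library the count of Hoxc8 was divided by that of its paralog Hoxb8, which gave 1.01 ± 0.216 in the IPs (range 0.816 to 1.76) and 0.273 in the input. The highest of the 18 ratios was that of ZT8 replicate 2. The ratio of Hoxd9 to Hoxb9 counts was 1.45 ± 0.344 in the IPs and 0.271 in the input. That of Hoxc10 to Hoxa10 was 6.99 ± 1.70 against 2.07, and that of Hoxc5 to Hoxb5 0.542 ± 0.0997 against 0.171. The ratio of Hoxd4 to Hoxb4 counts ran the other way, at 0.0518 ± 0.0404 against 0.602. In each of these pairs all 18 IPs lay on the same side of the input. For Hoxc8 to Hoxb8, Hoxd9 to Hoxb9 and Hoxc5 to Hoxb5 this had to be so. The first gene of each had all 18 IPs above the input and the second all 18 below. It was nearly so for Hoxc10, with 17 IPs above, and Hoxa10, with 18 below. These ratios thus restate the comparison of single genes.

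The share of Hox counts taken by each cluster sums the same counts, so single abundant genes weigh on it. In the input Hoxb8 held 4592 of the 16809 Hox counts and Hoxc8 1255. Gene by gene, 4 of the 9 HoxB and 4 of the 9 HoxC genes compared had a mean above the input. How far the cluster shares rest on Hoxb8 and Hoxc8 was not tested. HoxC genes made up 32.7 ± 1.32% of the Hox counts of an IP (range 30.7 to 36.4%), against 19.1% in the input (95% exact binomial interval 18.5 to 19.7%). HoxB genes made up 39.0 ± 2.28% (32.9 to 42.7%) against 53.8% (53.0 to 54.5%). HoxA and HoxD differed little, at 16.2 ± 0.926% against 15.2% and 12.1 ± 0.771% against 12.0%, and for both some IPs lay on each side of the input. ZT8 replicate 2 held the lowest HoxB and the highest HoxC share of the 18.

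Divided by paralog groups instead, the IPs and the input resembled each other more. Groups 4 to 8 took 73.0 ± 2.53% of the Hox counts of an IP and 69.2% of the input. Group 9 took 13.5 ± 1.24% and 15.0%, and groups 10 to 13 took 10.8 ± 1.18% and 10.1%. Groups 1 to 3 took 2.74 ± 0.445% of an IP, with the 18 IPs between 2.08 and 3.45%, and 5.73% of the input, above all of them. Within the middle groups, group 7 was at 10.7 ± 1.31% against 5.34% and group 5 at 12.6 ± 1.12% against 9.92%, both with all 18 IPs above the input. Group 8 was at 36.1 ± 2.10% against 40.3%, with all 18 IPs below.

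**Figure D3:**
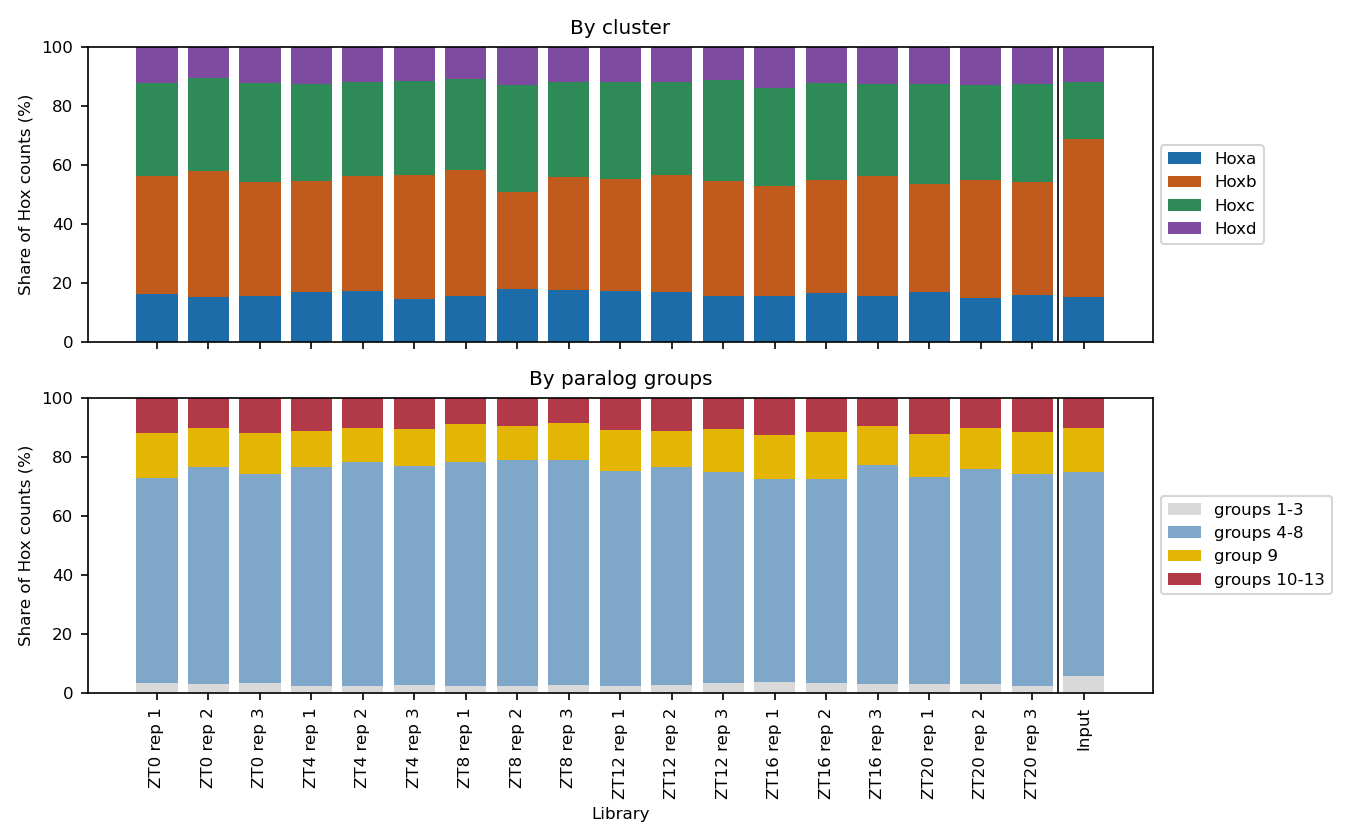
Share of the Hox counts of each library (%) taken by the 4 clusters (upper panel) and by paralog groups (lower panel), for the 18 IPs ordered by time and, right of the line, the input. The HoxC share is 30.7 to 36.4% in the IPs and 19.1% in the input, whereas the share of groups 10 to 13 is 8.58 to 12.8% in the IPs and 10.1% in the input.

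The second comparison asked whether Hox transcripts varied with the time of day. Of the 39 genes 33 passed the filter on low counts and were tested with edgeR's quasi-likelihood F-test, with Benjamini-Hochberg adjustment over all 15572 genes tested. The genes not tested were Hoxb1, Hoxd1, Hoxc12, Hoxd12, Hoxa13 and Hoxd13. Among the 6 time points 2 genes differed, Hoxa7 and Hoxc8, a share near the 6.74% of all genes called, and 6 were at an unadjusted p under 0.05, as were 23.7% of all genes. The same 2 genes passed a 24-h cosinor, in which 6.24% of all genes were called. These CPM values are scaled over the 18 IPs alone, and so differ slightly from those above.

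Hoxc8 stood at 95.1, 113 and 102 CPM in the 3 ZT0 libraries, at 128, 204 and 167 CPM at ZT8, and at 105, 89.0 and 111 CPM at ZT16. All 3 ZT8 libraries were above every ZT0, ZT16 and ZT20 library. Such separation of libraries was not counted over all genes, so here and for the genes below it has no background. The adjusted p was 0.0307 for any difference and 0.0423 for the cosinor, which had an amplitude of 0.29 on the log2 scale and its peak at ZT7.16.

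Hoxa7 stood at 46.3, 47.9 and 36.7 CPM at ZT0, at 57.1, 78.2 and 76.2 CPM at ZT8 and at 43.7, 40.8 and 40.5 CPM at ZT16. Again the ZT8 libraries did not overlap those of ZT0, ZT16 or ZT20. The adjusted p was 0.0351 for any difference and 0.0373 for the cosinor, with an amplitude of 0.37 and a peak at ZT7.43. Both tests of both genes rested on single libraries. Leaving out ZT8 replicate 2 gave adjusted p-values of 0.135 for Hoxa7 and 0.145 for Hoxc8 in the test of any difference. In that test both genes also lost their call without ZT0 replicate 1 or 3, ZT4 replicate 2 or 3, ZT8 replicate 3, or ZT16 replicate 1 or 2. Hoxa7 lost it without ZT12 replicate 2 or ZT20 replicate 1 or 2 as well, and its adjusted p was between 0.0552 and 0.137 in these cases.

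JTK_Cycle, a rank test against cosine curves with periods of 20, 24 and 28 h, called none of the 33 genes and 0.0385% of all genes. In the JTK_Cycle test at p under 0.05 within the gene, before adjustment over genes, 3 Hox genes passed (Hoxc8, Hoxb7 and Hoxa7), against 15.8% of all genes.

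Between ZT8 and ZT0 4 Hox genes differed, all of them higher at ZT8. All genes gave 18.0% called in either direction and 8.95% called higher at ZT8, against 12.1% of the 33 Hox genes, so the share was near the background. Hoxa7 rose by 0.70 ± 0.18 on the log2 scale (SE, edgeR adjusted p = 0.0124) and Hoxc8 by 0.69 ± 0.15 (0.00762). Hoxb7 rose by 0.56 ± 0.18 (0.0407), from 23.1, 33.2 and 22.7 CPM to 32.8, 46.5 and 36.4 CPM, with 1 ZT0 library inside the range of ZT8. This call was lost in 11 of the 21 fits that left out a library or a replicate number. Hoxd8 rose by 0.50 ± 0.17 (0.0443), from 25.0, 24.8 and 27.5 CPM to 27.5, 49.2 and 32.8 CPM. For Hoxd8 the lowest ZT8 library and the highest ZT0 library were almost equal, and the call was lost in 18 of the 21 fits and in 4 of 7 other alternatives. Without ZT8 replicate 2 no Hox gene passed, with adjusted p-values of 0.0682 for Hoxc8, 0.0812 for Hoxa7, 0.243 for Hoxb7 and 0.419 for Hoxd8. The count was 1 without ZT0 replicate 3, 2 without ZT0 replicate 1, ZT4 replicate 2, ZT8 replicate 3, ZT12 replicate 2 or ZT20 replicate 3, and 6 without ZT8 replicate 1. Calls over all genes moved too. Leaving out ZT8 replicate 2 took them from 18.0% to 1.72%, leaving out ZT0 replicate 3 gave 7.05%, and dropping ZT8 replicate 1 raised them to 24.9%.

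Between ZT16 and ZT8 3 Hox genes differed, all of them lower at ZT16. All genes gave 16.9% called in either direction and 7.80% called lower at ZT16, against 9.09% of the 33 Hox genes. Hoxa7 fell by 0.76 ± 0.18 on the log2 scale (SE, edgeR adjusted p = 0.00937), Hoxc8 fell by 0.71 ± 0.15 (0.00817) and Hoxb7 fell by 0.67 ± 0.18 (0.0195). At ZT16 Hoxb7 was at 20.5, 21.0 and 31.5 CPM, with every library below those of ZT8. The count was 0 without ZT8 replicate 2 or without ZT16 replicate 2, 2 without ZT16 replicate 1, 5 without ZT4 replicate 1, and 6 without ZT8 replicate 1 or ZT16 replicate 3. Over all genes, leaving out ZT8 replicate 2 gave a share of 0.545%, ZT16 replicate 2 one of 0.450%, and ZT8 replicate 1 one of 24.1%. Both contrasts use the same ZT8 libraries and are not independent.

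Between ZT20 and ZT8 edgeR called 0 Hox genes and 0.00% of all genes, with 5 Hox genes and 22.3% of all genes at an unadjusted p under 0.05. DESeq2 called 2 of 23 Hox genes and 10.1% of all genes. No Hox gene passed in the remaining 12 pairs of time points by edgeR, and at an unadjusted p under 0.05 between 0 and 8 Hox genes did in each, as did 1.32 to 21.0% of all genes. ZT8 gave the highest mean for 13 of the 33 genes, ZT0 for 7, ZT4 for 5, ZT12 for 4, ZT20 for 3 and ZT16 for 1. It also gave the lowest mean for Hoxb3, Hoxa4, Hoxd4, Hoxc6, Hoxc9, Hoxc10, Hoxa11, Hoxb13 and Hoxc13. The time of the highest mean was not counted over all genes, so these numbers have no background. In the share of Hox counts, groups 4 to 8 took 76.0 to 76.7% in the 3 ZT8 libraries and 68.9 to 75.9% in the other 15. Of 7 such measures this was the only one that set the ZT8 libraries apart. The others, namely groups 1 to 3, 9 and 10 to 13, groups 7 and 8 alone and the summed Hox CPM, overlapped. Groups 4 to 8 hold Hoxa7, Hoxb7, Hoxc8 and Hoxd8, the genes called higher at ZT8 than at ZT0, so their share is not separate from those calls. The gap was narrow, at 76.05% against 75.93%, and no other time point was set against the rest in this way.

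Genes of the lumbar groups passed no test of time, and their means at ZT8 lay on both sides of those at ZT0. Hoxd10 had means of 16.0 CPM at ZT8 and 13.7 at ZT0, with all ZT8 libraries above those of ZT0, Hoxa10 8.19 and 6.52, and Hoxd11 4.47 and 4.21 CPM. Hoxa11, a gene of the lumbar and hindlimb levels, was at 0.885, 0.378 and 0.307 CPM at ZT8, below every library of the other 5 time points, which lay between 0.926 and 2.40 CPM. Its edgeR adjusted p for any difference was 0.277, and its ZT8 libraries held only 13, 7 and 5 counts. How many of all genes show a separation like that of Hoxd10 or Hoxa11 was not counted. Hoxc10 was at 53.3, 51.6 and 47.8 CPM at ZT0 and at 44.5, 56.1 and 41.0 CPM at ZT8, so the groups overlapped.

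Cholinergic markers moved over the same contrasts. Of the 7, 4 were called lower at ZT8 than at ZT0 and 5 higher at ZT16 than at ZT8, Chat among both with log2 differences of -1.75 (edgeR adjusted p = 0.0115) and 1.77 (0.0115). The sum of the 7 was 4295 to 4768 CPM at ZT0, 4230 to 4685 at ZT8 and 4623 to 5027 at ZT16, with no marker at 0. Most of this sum was Prph, a filament gene of motor neurons at 2983 CPM on average, which passed neither contrast. Oligodendrocyte markers summed to 1827 to 2207 CPM at ZT0, 1744 to 2002 at ZT8 and 1932 to 2887 at ZT16. Of the 7 oligodendrocyte markers Mbp alone was called, with log2 differences of -0.46 from ZT0 to ZT8 (edgeR adjusted p = 0.0141) and 0.54 from ZT8 to ZT16 (0.00883). Of 6 microglial markers Cx3cr1 alone was called, 1.47 higher at ZT8 than at ZT0 (edgeR adjusted p = 0.0150) and lower again at ZT16 (log2 difference -1.51, 0.0147), the direction of the called Hox genes, at 2.04 CPM on average. From ZT0 to ZT8 the excitatory neuron marker Tac1 rose (log2 difference 0.80, edgeR adjusted p = 0.0492), while the inhibitory neuron markers Gad2 (-0.54, 0.0129) and Slc32a1 (-0.62, 0.0380) fell. All 4 erythrocyte markers differed among the 6 time points, and none between these pairs. The part of any of these markers in the differences of Hox transcripts was not tested.

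**Figure D4:**
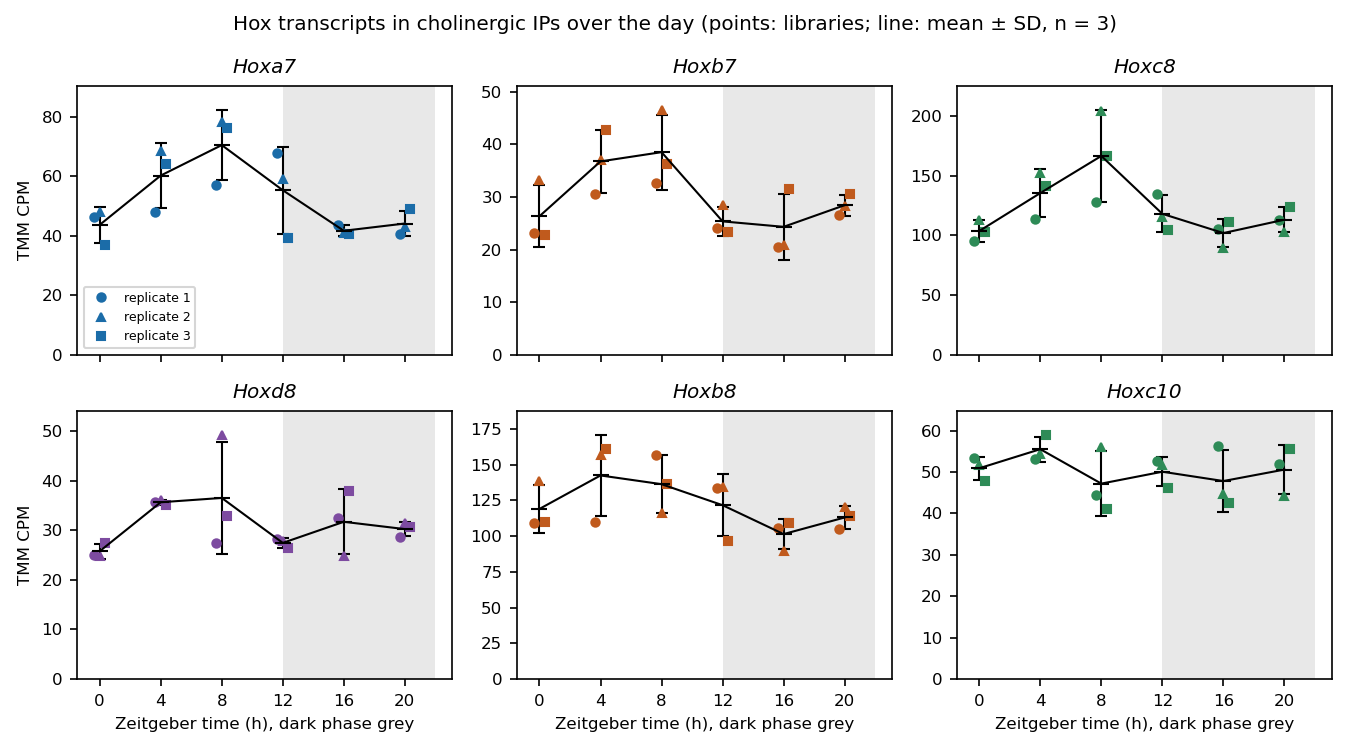
TMM CPM of 6 Hox genes against Zeitgeber time (h), with a point for each of the 3 libraries of a time point and a line through the means with SD bars; the dark phase is grey. Hoxa7 and Hoxc8 have their highest means at ZT8 (70.5 and 166 CPM) and their lowest at ZT16 (41.7 and 102 CPM), whereas Hoxc10 stays between 47.2 and 55.5 CPM.

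Across the 18 IPs the Hox genes varied between animals about as much as other genes. The median biological coefficient of variation, edgeR's estimate of the spread between replicates beyond counting noise, was 16.6% over the 33 genes and 17.5% over all genes tested. Hoxc6 had the lowest, at 11.4%, followed by Hoxc10 at 11.6% and Hoxa5 at 11.8%. The highest was that of Hoxa6, at 123%.

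Pairs of Hox genes were then compared by their log2 CPM across the 18 IPs, which gave 528 pairs with permutation p-values adjusted over the pairs by the Benjamini-Hochberg method. A Spearman rho of at least 0.5 was reached by 50 pairs, or 9.47%, against 7.66% of all pairs of genes tested. The adjusted test was passed by 18 pairs, 1 of them negative. It was not run over all pairs of genes, so this count has no background. All pairs share the same libraries, with their depth and composition, whose part in these correlations was not tested.

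The pairs with the highest rho joined middle genes of different clusters as well as neighbours. Hoxb6 and Hoxb7, adjacent in the HoxB cluster, had rho 0.91 and Pearson's r 0.88 (permutation p = 1e-05 for both, the smallest that 100000 resamples can give, adjusted p = 0.00264), with r 0.88 without the 2 libraries furthest from the median. Hoxa7 and Hoxc8, on chromosomes 6 and 15, had rho 0.89 and r 0.89 (permutation p = 1e-05, adjusted p = 0.00264), with r 0.83 without those libraries. Next came Hoxb6 and Hoxb8 (rho 0.87, r 0.81), Hoxb7 and Hoxc8 (rho 0.82, r 0.82) and Hoxa7 and Hoxd9 (rho 0.80, r 0.80), with permutation adjusted p-values of rho of 0.00528, 0.0066 and 0.00981. On deviations from the time point means the 5 rho values were 0.80, 0.77, 0.65, 0.71 and 0.73, so these genes varied together within time points as well.

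The lowest rho belonged to Hoxc11, a lumbar gene at 0.756 ± 0.525 CPM. It was -0.81 with Hoxd8 (r -0.79, permutation adjusted p = 0.00981), -0.67 with Hoxb7 (r -0.71, 0.0721) and -0.63 with Hoxb4 (r -0.56, 0.117). A rho of at least 0.5 was reached by 7.26% of the 124 pairs within a cluster, by 12.1% of the 33 pairs within a paralog group and by 9.97% of the 371 other pairs.

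**Figure D5:**
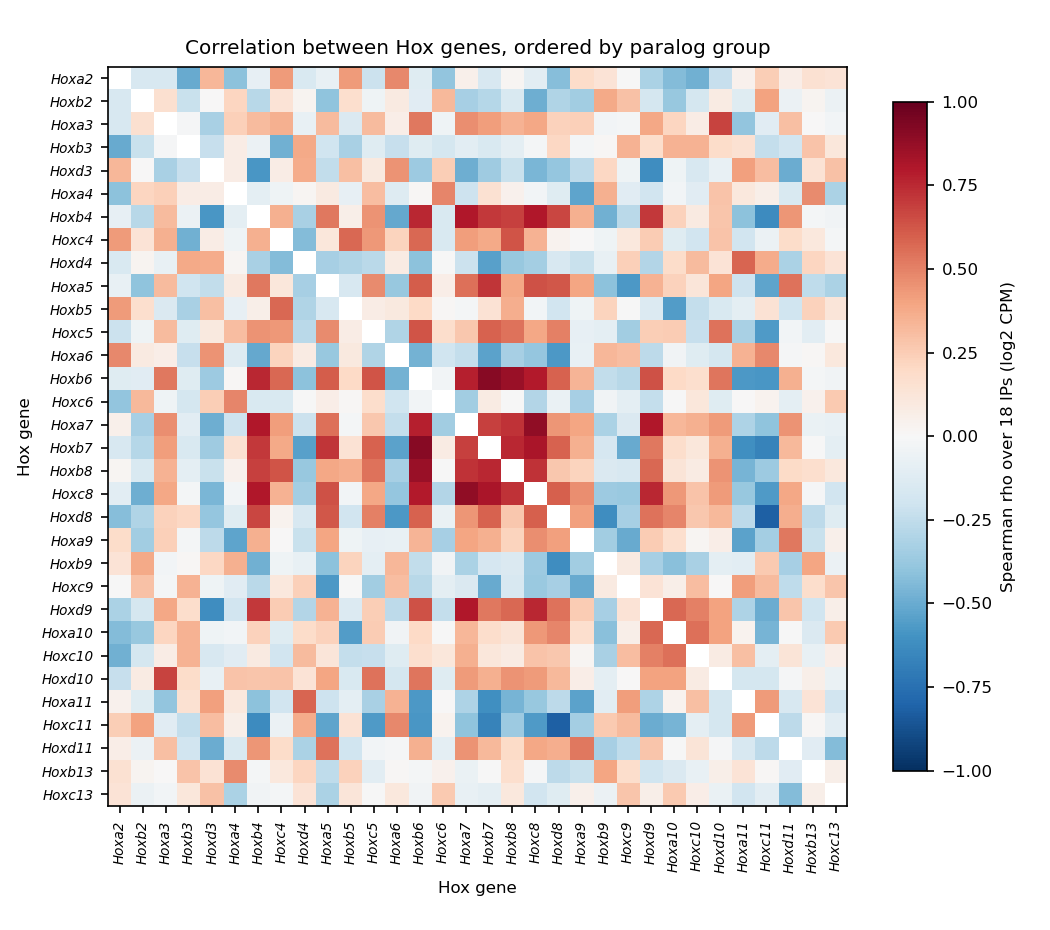
Spearman rho of log2 CPM over the 18 IPs for every pair of 32 of the Hox genes tested, ordered by paralog group on both axes, with red for positive and blue for negative values. A block of positive values joins Hoxb4, Hoxb6, Hoxa7, Hoxb7, Hoxb8, Hoxc8 and Hoxd9, and Hoxc11 is negative with most of them.

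Genes that work with or around the Hox genes were read from lists. Of 9 TALE cofactors, the homeodomain partners that help HOX proteins bind DNA, none was above the input by the rule and 2 were below, Meis2 at 18.7 ± 3.43 against 43.3 CPM and Pknox1 at 7.96 ± 1.85 against 18.6 CPM. Pbx2 was at 51.7 ± 5.76 against 39.8 CPM and Pbx3 at 24.1 ± 2.87 against 33.3 CPM. Meis2 was the only cofactor to differ among time points (edgeR adjusted p = 0.0322). It fell by 0.68 on the log2 scale from ZT0 to ZT8 (edgeR adjusted p = 0.00611) and was 0.43 higher at ZT16 than at ZT8 (0.0374). Pbx2 fell by 0.37 from ZT8 to ZT16 (0.0244).

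Of 15 genes of motor columns and pools, 6 were above the input and 3 below. Those above were Mnx1 (log2 ratio 4.14), Isl2 (2.71), Lhx3 (2.61) and Isl1 (2.35), which are homeodomain factors of motor neurons, with the neurotrophic factor receptor Ret (1.88) and Lmo4 (1.01). Those below were Lhx1 (-4.98), Zeb2 (-3.83) and Pou3f1 (-1.09). Foxp1, the HOX accessory factor of limb-level columns, was at 23.1 ± 5.08 against 16.3 CPM with all 18 IPs above the input, and fell by 0.64 from ZT8 to ZT16 (edgeR adjusted p = 0.0211). Isl1 was 0.70 higher at ZT16 than at ZT8 (edgeR adjusted p = 0.0147), and Ret fell by 0.44 from ZT0 to ZT8 (0.0482).

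Of 15 Polycomb and Trithorax genes, which keep Hox loci silent or active, none was above the input and 4 were below, namely Kdm6a, Phc1, Bmi1 and Ezh2. Ezh1, the form of the enzyme found in mature neurons, was at 67.7 ± 5.13 against 40.5 CPM. Phc1 fell by 0.74 from ZT0 to ZT8 (edgeR adjusted p = 0.0326) and Rnf2 fell by 0.79 from ZT8 to ZT16 (0.0398). Of the genes that switch on Hox clusters in the embryo, Cdx1, Cdx2 and Cdx4 had no count in any library, and of the retinoic acid receptors Rara was above the input at 18.6 ± 3.01 against 8.31 CPM while Rarb was below at 3.42 ± 0.820 against 7.33 CPM.

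Of 13 noncoding genes listed for the Hox clusters, 11 were in the table. Mira was by far the most abundant, at 54.6 ± 11.2 against 26.8 CPM with all 18 IPs above the input, and rose by 0.55 from ZT0 to ZT8 (edgeR adjusted p = 0.0301). Its RefSeq position on chromosome 6 is 52214491 to 52215288, which is 334 bases past the 3′ end of Hoxa7, and GENCODE M21 counts the same stretch as part of Hoxa7. Whether reads of Mira and Hoxa7 come from shared transcripts was not tested, so Mira is not read as separate from Hoxa7. Hotair, from the HoxC cluster, was at 0.437 ± 0.257 against 1.47 CPM, with all 18 IPs below. The most abundant of the other 9 was Haglr, at 2.01 ± 1.04 against 2.71 CPM, and none of these was called above or below the input.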

How the data were processed

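RNA of 18 HA immunoprecipitates and 1 pooled input was sequenced as paired-end reads from stranded libraries. The labels and the paper's methods state that the authors aligned reads with STAR 2.7.5 to mm10 and deposited RSEM expected counts per gene, not normalized. All 741 Hox values were whole, and counts were rounded. The study names an Ensembl annotation, whereas the table holds symbols such as Mira that GENCODE M21 lacks, so the annotation is uncertain. Coordinates are from RefSeq on GRCm38.p6 and transcript lengths from GENCODE M21, by symbol.

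Genes were kept with filterByExpr over time points and scaled by TMM. Tests were quasi-likelihood F-tests of edgeR 4.0.16 (R 4.3.3) on the 18 immunoprecipitates, adjusted by Benjamini-Hochberg at 0.05, and JTK_Cycle with exact null distributions and a Bonferroni adjustment over 18 templates. The edgeR, cosinor and JTK_Cycle scripts were tested on simulated data. DESeq2 1.42.0 and further alternatives are in the closing section. Levels against the input use TMM over 19 libraries and time tests TMM over 18. Intervals of the input are exact, at 95%, and cover counting error only. Two-sided permutation tests of correlation used 100000 resamples. Replicates are separate animals per the labels.

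The Hox family and the other gene lists were chosen as subjects with earlier results of these data known. Within the family the members were taken by symbol alone. Values were given for the highest gene of each paralog group, genes past a test, the 5 strongest ratios to the input in each direction (30 or more input counts), genes under 1 CPM and the 5 highest and 3 lowest correlations. Other Hox genes named, such as Hoxb8, Hoxb9, Hoxa5 and Hoxa11, the ratios within a library and the promoters shown were chosen after the values were seen. Other annotation columns were not used. Values of some single genes are not reported here.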

Additional observations from a re-analysis of the deposited data

How the results depend on the processing

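The counts of Hox genes called over time were small and moved with single libraries, as did the share of all genes called, which is given in brackets. For any difference among the 6 time points the count of 2 became 6 without a filter on low counts (10.8%) and ran from 0 to 4 (0.00 to 15.2%) when a library or a replicate number was left out. For the cosinor the count of 2 became 4 without a filter (9.17%) and 4 with the DESeq2 test (17.5%), and ran from 0 to 3 (0.00 to 16.6%) with a library or number left out. JTK_Cycle called 0 of the 33 genes, 3 with the p-value within the gene alone (15.8%), and from 0 to 1 (0.00 to 4.75%) with a library or number left out. ZT20 against ZT8 gave 0, with 2 without a filter (6.41%), 2 with DESeq2 (10.1%) and from 0 to 3 (0.00 to 14.4%) with a library or number left out. ZT8 against ZT0 gave 4, with 2 when the 6 libraries were fitted alone (13.8%) and from 0 to 6 (0.00 to 24.9%) with a library or number left out. ZT16 against ZT8 gave 3, with 5 without a filter (11.7%), 5 with DESeq2 (21.1%), 0 with the 6 libraries alone (0.00694%) and from 0 to 6 (0.00 to 24.1%) with a library or number left out. Scaling by DESeq2 size factors or library totals, and the study's filter on 10 counts over all libraries, kept these counts within 1.5 times. The 4 genes called between time points kept their direction in each of these fits.

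A further fit added the replicate block, a term for the replicate number, with the share of all genes called again in brackets. With this block the counts were 3 for any difference (6.447%), 2 for the cosinor (4.97%) and 0 for JTK_Cycle (2.299%). They were 0 for ZT20 against ZT8 (0.04495%), 3 for ZT8 against ZT0 (17.7%) and 3 for ZT16 against ZT8 (16.58%). JTK_Cycle calls over all genes thus went from 6 to 358 with the block, none of them a Hox gene. Hoxd8 between ZT8 and ZT0 had an adjusted p of 0.0569 with the replicate block. Libraries of different time points were also correlated in their deviations from the time point means. With the same number the correlations ran from -0.52 to 0.59 (median 0.075), and with different numbers from -0.55 to 0.53 (median -0.011). Over 0.1 were 18 of 45 and 32 of 90 of them. The ranges overlap, which cannot tell whether libraries with the same number share a batch.

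Against the input 2 Hox genes were above, 1 with library totals, 1 with upper-quartile scaling and 5 at a 1.5-fold difference. The count below ran from 11 to 14 with a library or number left out. Pairs of Hox genes at a rho of at least 0.5 numbered 50, and ran from 53 to 85 with a replicate number left out. The single input and the low counts of groups 1, 12 and 13 limit what can be read of these genes.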
